A study of Rattus norvegicus with 16 samples.

Results

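The genes described here are Vegfa, its receptor genes Kdr and Flt1, and Hif1a, chosen by their Ensembl identifiers ENSRNOG00000019598, ENSRNOG00000046829, ENSRNOG00000000940 and ENSRNOG00000008292, 4 of the 26689 rat genes in the deposited table. Their transcripts were measured by RNA sequencing of kidneys of male Wistar pups. The question was what losing nephrons early, while the rat kidney is still forming new ones after birth, does to renal gene expression. In the group UNX day 1 the left kidney was removed (uninephrectomy, UNX) on day 1 of life, and in UNX day 14 on day 14 of life. The groups sham day 1 and sham day 14 had a sham operation on the same days, and tissue was taken 3 days after surgery in all 4 groups, each with 4 libraries. Below, day 1 and day 14 name the day of surgery and not the day of sampling. Per the labels, UNX was done under isoflurane anesthesia, and less tissue was used for RNA from UNXd1 than from UNXd14 kidneys. Whether the libraries of a group are different animals is not labelled, so p-values here reflect only the scatter among the libraries, which may be technical.

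Vegfa encodes a secreted growth factor that drives the growth and survival of blood vessels. In the kidney it is made by podocytes and tubule cells and acts on the endothelium of the glomerular and peritubular capillaries. Kdr (VEGFR-2) is the receptor through which most of its signal passes in endothelial cells. Flt1 (VEGFR-1) binds Vegfa tightly, signals weakly and is also made as a soluble form that traps the ligand. Hif1a encodes the oxygen-regulated subunit of the transcription factor HIF-1, which accumulates as protein when oxygen is low and activates Vegfa among other genes. It is controlled largely through the stability of its protein, which RNA levels do not show. The reads of soluble and membrane-bound Flt1 are not separated in values given per gene.

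The sequences just upstream of the 4 genes are shown as a description, and their relation to the expression differences was not tested. They are the 250 bases before the start in the RefSeq promoter table for build GRCr8, matched by symbol for 4 of 4 genes. For Vegfa the first of 2 listed starts was used. Capitals mark matches, on either strand, to any of 5 motifs. The core to which HIF binds was searched as ACGTG and, in its other common form, as GCGTG. A GC box was searched as GGGCGG, a cAMP response element was searched as TGACGTCA, and a TATA box was searched as TATAAA.
Vegfa, chr9:22452604-22452853, plus strand: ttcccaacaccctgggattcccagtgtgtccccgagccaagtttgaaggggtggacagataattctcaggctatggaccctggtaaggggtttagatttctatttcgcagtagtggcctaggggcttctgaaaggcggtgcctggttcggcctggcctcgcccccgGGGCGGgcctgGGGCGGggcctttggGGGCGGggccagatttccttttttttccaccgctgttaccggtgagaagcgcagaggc
Kdr, chr14:32571813-32572062, plus strand: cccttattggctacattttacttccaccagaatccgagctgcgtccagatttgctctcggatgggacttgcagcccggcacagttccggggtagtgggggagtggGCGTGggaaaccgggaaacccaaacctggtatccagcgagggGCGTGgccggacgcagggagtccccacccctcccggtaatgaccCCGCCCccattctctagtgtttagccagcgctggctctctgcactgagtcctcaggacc
Flt1, chr12:12333180-12333429, plus strand: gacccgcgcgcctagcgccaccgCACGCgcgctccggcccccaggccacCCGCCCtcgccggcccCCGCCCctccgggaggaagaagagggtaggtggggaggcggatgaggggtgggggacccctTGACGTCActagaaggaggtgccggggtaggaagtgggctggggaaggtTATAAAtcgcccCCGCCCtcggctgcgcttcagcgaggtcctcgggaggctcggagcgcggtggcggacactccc
Hif1a, chr6:98359648-98359897, plus strand: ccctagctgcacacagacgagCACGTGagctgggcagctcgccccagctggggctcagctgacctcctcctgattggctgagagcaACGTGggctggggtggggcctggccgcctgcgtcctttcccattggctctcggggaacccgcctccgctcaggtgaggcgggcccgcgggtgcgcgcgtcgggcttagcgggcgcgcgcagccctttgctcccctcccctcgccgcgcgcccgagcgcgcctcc
Flt1 held the cAMP response element at position −124 and the TATA box at position −75, counted from the start with −1 as the last base before it. Neither was in the windows of the other 3 genes. Of the 33469 windows of this length in the table, 1.59% hold the cAMP response element and 12.9% hold the TATA box. The GC box was matched 3 times in Vegfa, 3 times in Flt1 and 1 time in Kdr, and 30.5% of windows hold it. A HIF core was matched 2 times in Kdr, 1 time in Flt1 and 3 times in Hif1a, and 36.7% of windows hold either form. Neither form was matched in the Vegfa window. Only these 250 bases were examined for each gene, so sites further away would be missed. Of the matches in Hif1a, 2 overlap, since the letters CACGTG hold the core on both strands. The cAMP response element is its own reverse complement and was counted once per position. A match is a description of the letters and is not a measured binding site.

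The deposited unit is the regularised log (rlog), a log2 value scaled for library depth but not for gene length, so levels were compared between groups and not between genes. A difference of 1 is a doubling, and the transform shrinks differences. All 4 genes were among the 14845 genes with a mean value of at least 3 that were tested. Their means over the 16 libraries were 12.70 for Vegfa, 11.42 for Kdr, 10.49 for Flt1 and 10.82 for Hif1a. Each mean exceeded that of at least 83.8% of tested genes, a rank that gene length also affects. Read totals were not used here and the depth of each library is unknown. Library 3 of the sham day 1 group and library 4 of the sham day 14 group lay apart on the second principal component, which held 6.04% of the variance. Of 5051 genes with a mean rlog below 0, 47.9% peaked in library 3 and 20.2% in library 1 of the UNX day 14 group. Differences that moved by over 1.5 times, or whose call changed, without these libraries are also given without them. In bulk tissue, fewer cells of a type and less RNA per cell cannot be told apart. The reference table used here gives no Ensembl identifiers, so lists of other genes of the pathway and of endothelial, podocyte and other cell type markers could not be matched. The kidney label and the cellular makeup were therefore not checked against markers.

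Both receptor genes were more abundant in the older kidneys, Flt1 by 26.7% and 23.1% and Kdr by 9.0% and 12.4% in sham and UNX kidneys. Each of these differences passed the test, though the sham difference of Kdr no longer passed when certain single libraries were left out. Hif1a was higher at the older age by 11.7% in sham kidneys, a call also lost without certain single libraries. In UNX kidneys it was higher by 7.0%, which did not pass. The group means of Vegfa ran only from 12.65 to 12.74, and neither of its age differences passed. UNX moved none of the 4 genes past the test at either age. Over all tested genes only 0.00674% passed on day 1 and 0.0539% on day 14. The plot of the 4 genes by library shows every value.

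**Figure D1:**
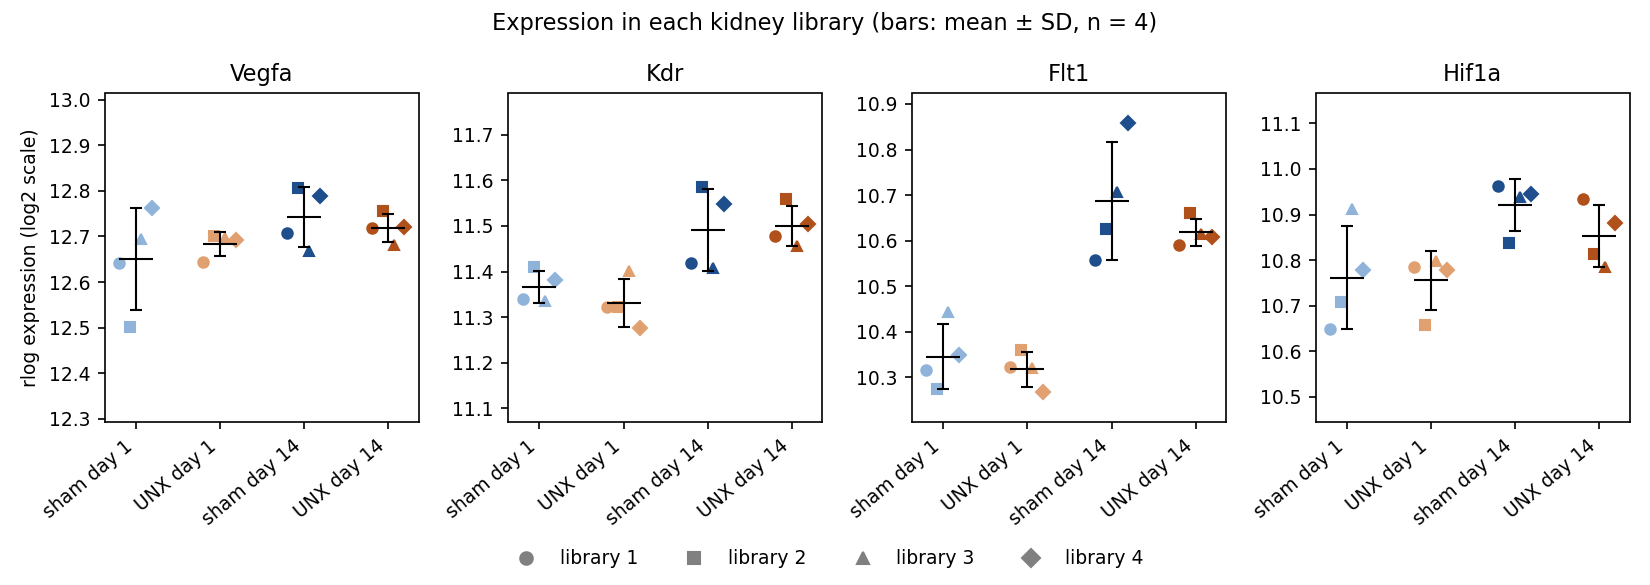
Rlog expression (vertical axis, log2 scale, the same span in each panel) of Vegfa, Kdr, Flt1 and Hif1a in each of the 4 groups, with 1 point per library, its shape giving the library number, and bars for the mean ± SD (n = 4). The 8 Flt1 values from day 1 surgery, up to 10.44, lie below the 8 from day 14 surgery, from 10.56.

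Flt1 separated the ages most clearly. In sham day 1 libraries 1 to 4 its rlog level was 10.32, 10.27, 10.44 and 10.35, and in UNX day 1 libraries it was 10.32, 10.36, 10.32 and 10.27. In sham day 14 libraries it was 10.56, 10.63, 10.71 and 10.86, and in UNX day 14 libraries it was 10.59, 10.66, 10.61 and 10.61. Every day 14 value lay above every day 1 value, in sham and in UNX kidneys alike. The highest value within each sham group came from the library that stood apart on the second principal component.

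The age difference of Flt1 in sham kidneys was 0.34 on the log2 scale with an SE of 0.053 (limma adjusted p = 3.55e-05). The 95% interval ran from 0.23 to 0.45, and in linear terms the level was 26.7% higher. In UNX kidneys it was 0.30 with an SE of 0.053 and an interval from 0.19 to 0.41 (limma adjusted p = 0.000124), 23.1% higher in linear terms. These comparisons share no library. Without the 2 sham libraries that stood apart, the sham difference was 0.32 (limma adjusted p = 2e-05). Without UNX day 14 libraries 1 and 3, the UNX difference was 0.32 (limma adjusted p = 0.00163). Among all tested genes, the size of the Flt1 difference exceeded that of 82.7% in sham and 78.1% in UNX kidneys, so many genes changed more with age.

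Kdr, the main signalling receptor, followed the same direction with a smaller difference. Its rlog level in libraries 1 to 4 was 11.34, 11.41, 11.33 and 11.38 in sham day 1 kidneys and 11.32, 11.32, 11.40 and 11.28 in UNX day 1 kidneys. It was 11.42, 11.59, 11.41 and 11.55 in sham day 14 kidneys and 11.48, 11.56, 11.46 and 11.50 in UNX day 14 kidneys. In UNX kidneys the ages did not overlap, while in sham kidneys the lowest day 14 value, in library 3, fell just under the highest day 1 value, in library 2.

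In UNX kidneys Kdr was higher at day 14 by 0.17 as a log2 difference, with an SE of 0.044 and an interval from 0.078 to 0.26 (limma adjusted p = 0.0036), or 12.4%. In sham kidneys it was higher by 0.12, with an SE of 0.044 and an interval from 0.033 to 0.22 (limma adjusted p = 0.0262), or 9.0%. The sham call lay near the threshold. It was lost, with a difference of 0.12, without sham day 1 library 1 (limma adjusted p = 0.0618) and, at 0.11, without sham day 1 library 3 (0.0588). It was also lost, at 0.093, without sham day 14 library 2 (limma adjusted p = 0.104) and, at 0.10, without sham day 14 library 4 (0.0809). The direction was the same in each of these fits. Without both libraries that stood apart the difference was 0.094 (limma adjusted p = 0.141), and with only the sham groups fitted it stayed at 0.12 (0.0687). The UNX call held in every fit without 1 library, with differences from 0.15 to 0.19. Without UNX day 14 libraries 1 and 3 it was 0.20 (limma adjusted p = 0.00855).

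Hif1a, the oxygen-regulated subunit, was higher with age in the sham comparison. Its rlog level was 10.65, 10.71, 10.91 and 10.78 in sham day 1 libraries and 10.96, 10.84, 10.94 and 10.95 in sham day 14 libraries. In UNX kidneys it was 10.79, 10.66, 10.80 and 10.78 on day 1 and 10.93, 10.81, 10.78 and 10.88 on day 14. The groups overlapped in both comparisons, with sham day 1 library 3 above sham day 14 library 2.

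The age difference of Hif1a was 0.16 in sham kidneys with an SE of 0.053 and an interval from 0.048 to 0.27 (limma adjusted p = 0.0195), or 11.7%. In UNX kidneys it was 0.098 with an SE of 0.053 and an interval from −0.013 to 0.21, short of the threshold (limma adjusted p = 0.14). The sham call was lost, with differences of 0.12, 0.14 and 0.15 in the same direction, without sham day 1 library 1 (limma adjusted p = 0.0779), sham day 1 library 2 (0.0572) or sham day 14 library 1 (0.0517). Without both sham libraries that stood apart the difference was 0.20 (limma adjusted p = 0.00514).

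Vegfa, the ligand, had the smallest age differences of the 4. It was at 12.64, 12.50, 12.70 and 12.76 in sham day 1 libraries and at 12.64, 12.70, 12.70 and 12.69 in UNX day 1 libraries. It was at 12.71, 12.81, 12.67 and 12.79 in sham day 14 libraries and at 12.72, 12.76, 12.68 and 12.72 in UNX day 14 libraries. The groups overlapped in each comparison, and sham day 1 library 2 held the lowest of the 16 values. The age difference was 0.092 in sham kidneys (SE 0.047, interval −0.0073 to 0.19; limma adjusted p = 0.123) and 0.036 in UNX kidneys (SE 0.047, interval −0.063 to 0.14; limma adjusted p = 0.566). The upper bounds correspond to levels 14.2% and 9.84% higher, so a change of the size seen for Flt1 in the same group lay outside both intervals. The sham value moved with single libraries. It was 0.13 without sham day 1 library 4, where it passed the test (limma adjusted p = 0.0346), and 0.042 without sham day 1 library 2 (0.448). Without UNX day 14 libraries 1 and 3 the UNX value was 0.056 (limma adjusted p = 0.508), and without UNX day 1 library 1 it was 0.023.

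Changes with age were common across the kidney. In sham kidneys 3 of the 4 genes were called, all higher, where 45.1% of tested genes were called and 22.6% were called higher (limma adjusted p under 0.05). In UNX kidneys 2 of 4 were called, both higher, where 45.9% of tested genes were called and 23.1% were called higher. Every day 14 value lay above every day 1 value in 1 of 4 genes in sham and 2 of 4 in UNX kidneys, as it did for 18.3% and 22.9% of tested genes. The median size of the age difference over the 4 genes was 0.14 in sham and 0.13 in UNX kidneys, beside 0.14 in each over all tested genes. Age and anything else that followed the surgery day, among them the amount of tissue used, cannot be told apart.

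**Figure D2:**
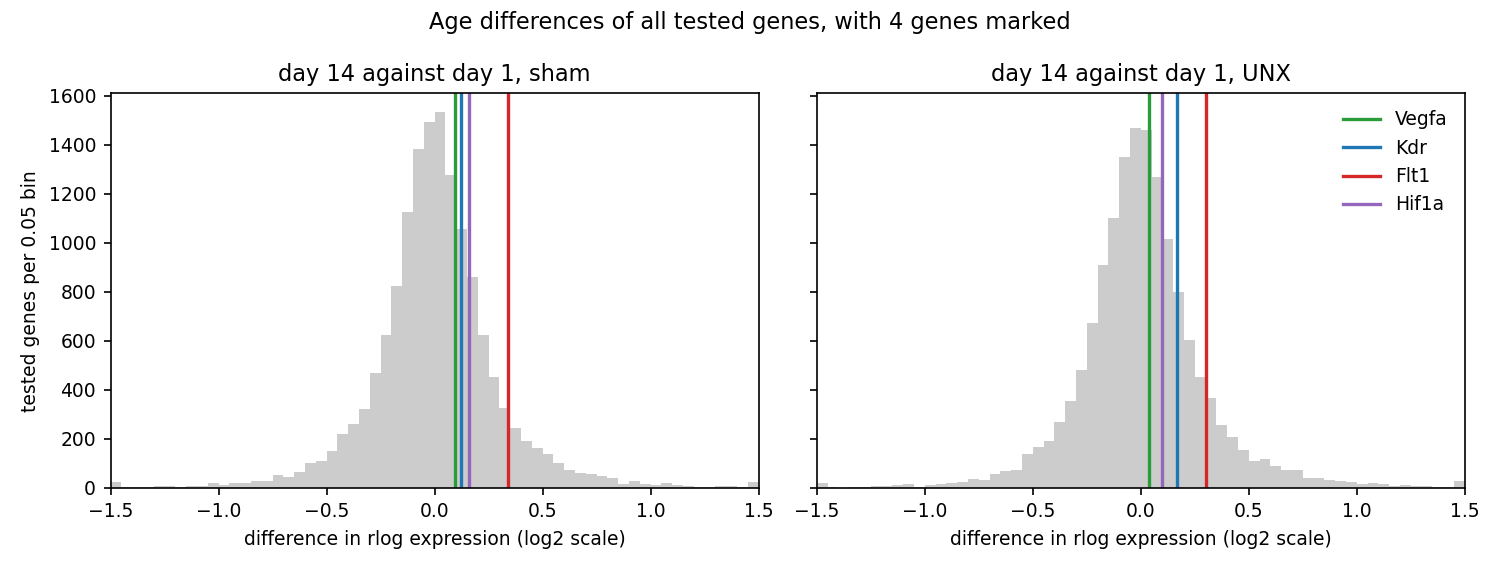
Number of tested genes (vertical axis, per bin of 0.05) by their difference in rlog expression between day 14 and day 1 (horizontal axis, log2 scale, values beyond ±1.5 counted in the end bins), for sham and UNX kidneys, with coloured lines for the 4 genes. All 4 lines lie to the right of 0, and Flt1, at 0.34 and 0.30, lies furthest out in each panel.

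Loss of the left kidney was then compared with sham surgery at each age. After surgery on day 1, the UNX difference was 0.033 for Vegfa (95% interval −0.067 to 0.13), −0.036 for Kdr (−0.13 to 0.055), −0.028 for Flt1 (−0.14 to 0.083) and −0.0064 for Hif1a (−0.12 to 0.10). After surgery on day 14, it was −0.023 for Vegfa (−0.12 to 0.076), 0.0087 for Kdr (−0.083 to 0.10), −0.069 for Flt1 (−0.18 to 0.041) and −0.068 for Hif1a (−0.18 to 0.043). UNX and sham values overlapped for all 4 genes at both ages, while they were apart in 4.51% of tested genes on day 1 and 6.97% on day 14. None of the 4 passed the test on day 1 (smallest limma adjusted p = 0.913) or on day 14 (0.599), and 0 of 4 reached an unadjusted p under 0.05 in either. Over all tested genes 0.00674% were called on day 1 and 0.0539% on day 14, and 7.15% and 14.4% reached an unadjusted p under 0.05. Beside so low a background, a count of 0 among 4 genes is not a result about these genes.

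In linear terms, the day 1 interval of the UNX level relative to sham ran from −4.51% to 9.6% for Vegfa and from −8.45% to 3.9% for Kdr. The day 14 interval ran from −8.15% to 5.42% for Vegfa and from −5.56% to 7.18% for Kdr. For Flt1 and Hif1a the day 14 intervals were −11.7% to 2.92% and −11.6% to 3.03%. Larger shifts in either direction lay outside the 95% intervals of these libraries. Averaged over both ages, the UNX difference was 0.0048 for Vegfa (95% interval −0.065 to 0.075), −0.014 for Kdr (−0.078 to 0.051), −0.049 for Flt1 (−0.13 to 0.030) and −0.037 for Hif1a (−0.12 to 0.041). None of these passed either (smallest limma adjusted p = 0.681; 0 of 4 at an unadjusted p under 0.05, against 10.6% of tested genes). Over all tested genes 0.00674% were called.

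These small UNX differences moved with single libraries, and none passed in any fit. Without sham day 14 library 4, which stood apart, the day 14 difference of Flt1 was −0.012, and without sham day 14 library 1 it was −0.11. That of Vegfa was −0.048 without sham day 14 library 3 and −0.0020 without sham day 14 library 2, and that of Hif1a ran from −0.095 to −0.045 without 1 library. Without both sham libraries that stood apart, the difference averaged over ages was −0.0039 for Flt1 and −0.0081 for Hif1a. The averaged values without 1 library ran from −0.070 to −0.020 for Flt1 and from −0.056 to −0.012 for Hif1a.

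**Figure D3:**
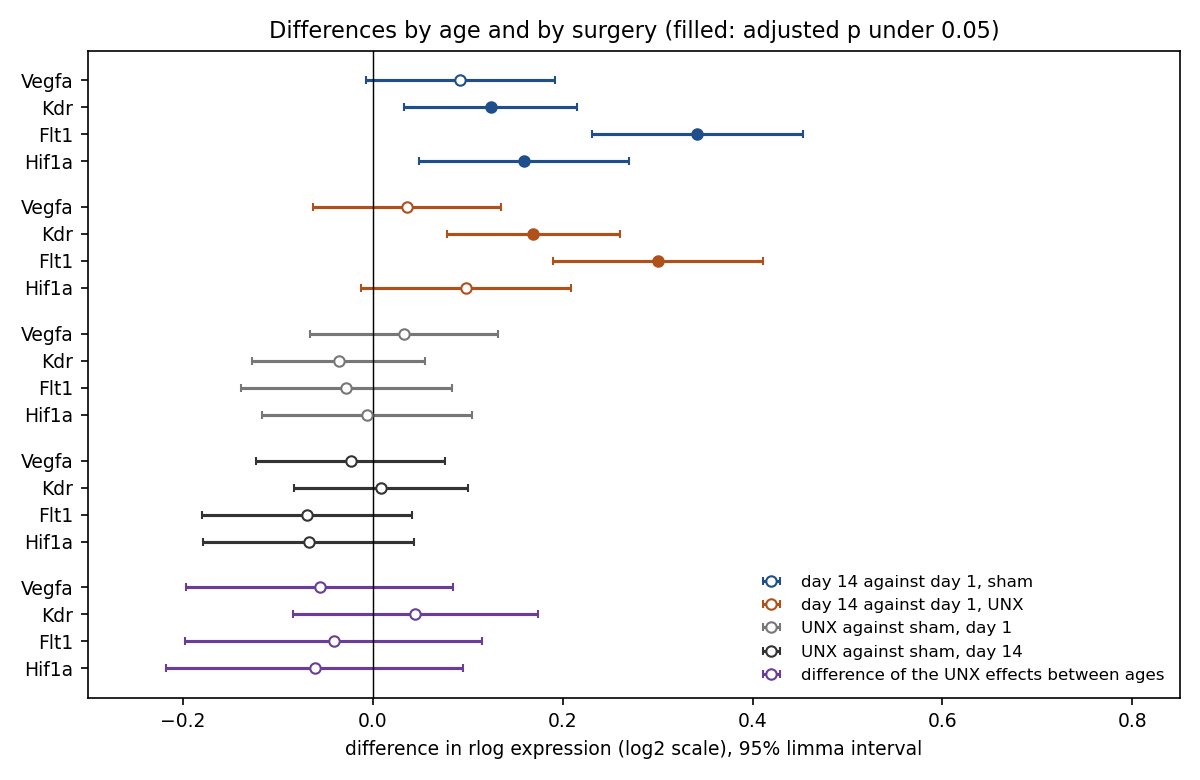
Differences in rlog expression (horizontal axis, log2 scale) of the 4 genes with 95% limma intervals, for age in sham and in UNX kidneys, for UNX at each age, and for the difference between the UNX effects. Filled points passed at adjusted p under 0.05: Kdr, Flt1 and Hif1a for age in sham kidneys, and Kdr and Flt1 for age in UNX kidneys.

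Whether the age difference depended on surgery was tested as the UNX effect on day 14 minus that on day 1, which equals the age difference in UNX minus that in sham kidneys. It was −0.056 for Vegfa (95% interval −0.20 to 0.084), 0.045 for Kdr (−0.084 to 0.17), −0.041 for Flt1 (−0.20 to 0.12) and −0.061 for Hif1a (−0.22 to 0.095). None passed (smallest limma adjusted p = 0.798), and 0 of 4 reached an unadjusted p under 0.05, against 10.7% of tested genes. Over all tested genes 0% were called. The age difference of Hif1a, called in sham and not in UNX kidneys, was thus not shown to differ between them.

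Since both receptors were higher with age and the ligand was not called, the change of 1 gene relative to another was taken within each library. Kdr minus Flt1 was 1.02 ± 0.10 in sham day 1 and 0.80 ± 0.13 in sham day 14 kidneys (SD, n = 4 each), a difference of −0.22 (two-sided exact permutation test, p = 0.0571, 0.229 after Benjamini-Hochberg adjustment over 12 tests). It was 1.01 ± 0.049 in UNX day 1 and 0.88 ± 0.026 in UNX day 14 kidneys, where the ages did not overlap, a difference of −0.13 (exact permutation p = 0.0286, adjusted 0.171). In both surgery groups the balance lay further towards Flt1 at the older age. Neither value passed after adjustment, which groups of 4 made hard to reach.

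Vegfa minus Kdr was 1.35 ± 0.055 in UNX day 1 and 1.22 ± 0.017 in UNX day 14 kidneys, again without overlap, a difference of −0.13 (exact permutation p = 0.0286, adjusted 0.171). In sham kidneys the same difference was −0.032 (exact permutation p = 0.714, adjusted 0.779). Vegfa minus Hif1a differed between ages by −0.067 in sham (exact permutation p = 0.371) and −0.062 in UNX kidneys (exact permutation p = 0.314), and both were 0.637 after adjustment. Without 1 library these values ran from −0.12 to −0.033 in sham and from −0.088 to −0.024 in UNX kidneys. The 6 comparisons of UNX with sham gave exact permutation p from 0.143 to 0.886. With 4 libraries against 4 the smallest p is 0.0286, which a single comparison among 12 cannot carry past the adjustment. Comparisons at this smallest exact permutation p reached only 0.171 after adjustment, so not passing says little either way.

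**Figure D4:**
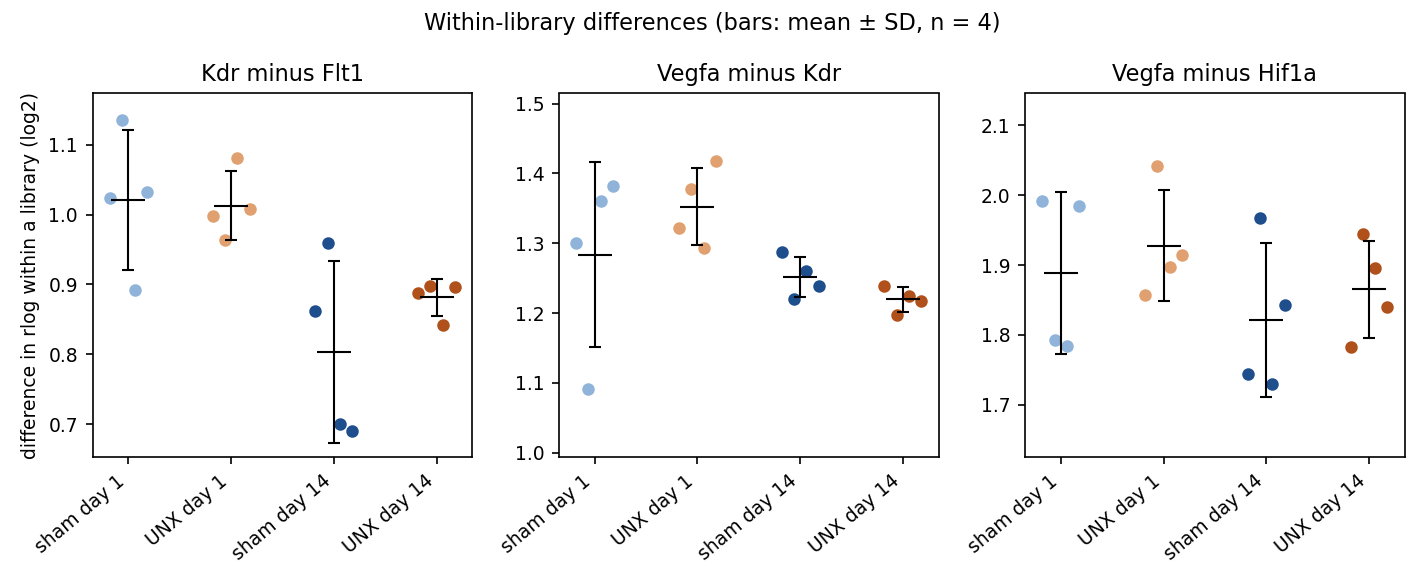
Difference in rlog level between 2 genes of the same library (vertical axis, log2 scale) for Kdr minus Flt1, Vegfa minus Kdr and Vegfa minus Hif1a, with 1 point per library and bars for the mean ± SD (n = 4). The mean of Kdr minus Flt1 is 1.02 on day 1 and 0.80 on day 14 in sham kidneys, and 1.01 and 0.88 in UNX kidneys.

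Which genes varied together between libraries was examined within each surgery day, 8 libraries at a time, in 12 relations. Vegfa and Kdr, ligand and receptor, rose and fell together across the libraries from day 14 surgery. Pearson r was 0.92 (exact permutation p = 0.00188, n = 8, 0.0226 after Benjamini-Hochberg adjustment over 12 relations) and Spearman rho was 0.95 (exact permutation p = 0.00114, adjusted 0.0137). Sham libraries 2 and 4 were high in both genes and sham library 3 was the lowest in both. The values spanned only 12.67 to 12.81 for Vegfa and 11.41 to 11.59 for Kdr. Without the 2 libraries farthest from the median of Vegfa, r was 0.88. Within the 4 UNX and the 4 sham libraries r was 0.95 and 0.98, given as a description.

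Of the other tested genes, 12 had a higher r with Vegfa over these 8 libraries, and 13 had a higher r with Kdr. With 1 library left out, r ranged from 0.89 to 0.96. Its adjusted p then rose above 0.05 without UNX day 14 library 1 (0.0833) or 4 (0.0595), or without sham day 14 library 2 (0.119) or 3 (0.107), in tests with 7 libraries. After surgery on day 1 the same r was −0.32 (exact permutation p = 0.467, n = 8, adjusted 0.718) and rho was −0.071 (exact permutation p = 0.882, adjusted 0.882). Without the 2 libraries farthest from the median of Vegfa, the r for day 1 surgery was 0.051. Whether r differed between the ages was not tested. The other 10 relations had r from −0.42 to 0.52 and did not pass (smallest adjusted p = 0.718 for r and 0.69 for rho).

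**Figure D5:**
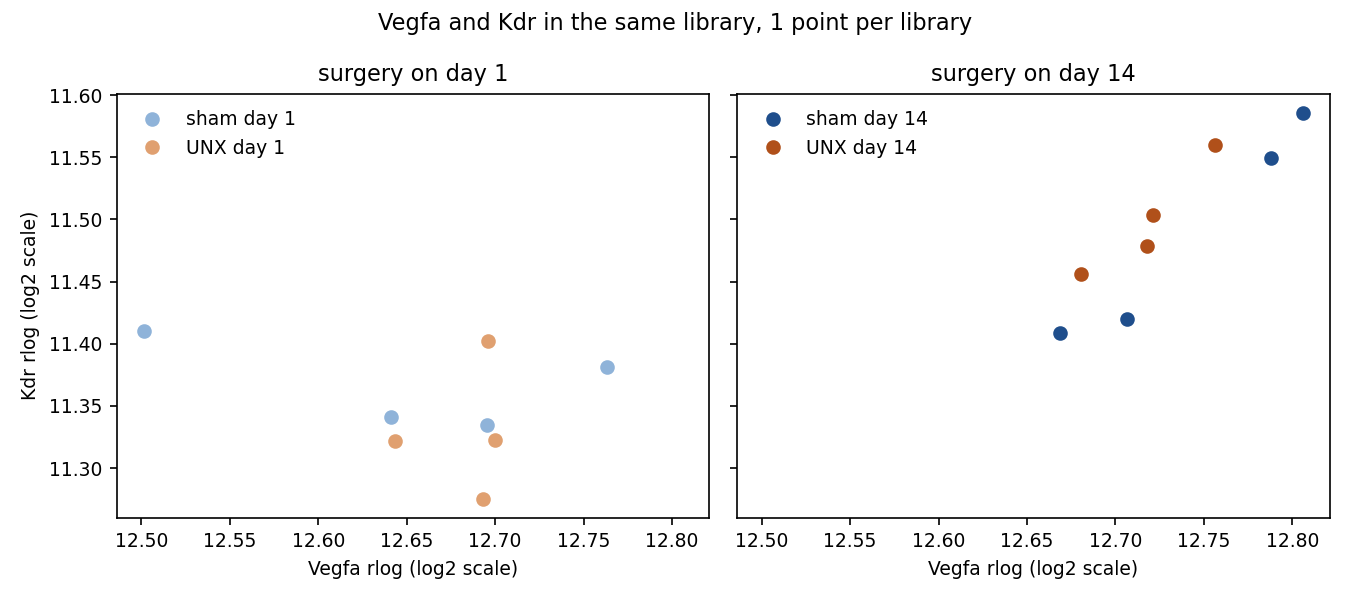
Kdr (vertical axis) against Vegfa (horizontal axis), both as rlog expression on a log2 scale, with 1 point per library, for surgery on day 1 and on day 14. The 8 libraries from day 14 surgery lie along a rising line (r = 0.92) and those from day 1 surgery do not (r = −0.32). Without the 2 libraries farthest from the median of Vegfa these r were 0.88 and 0.051. Whether they differ was not tested.

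Flt1, the other receptor, was compared with Kdr in the same way. Their r was −0.043 over the 8 libraries from day 1 surgery and 0.32 over the 8 from day 14 surgery (n = 8 each; exact permutation p = 0.926 and 0.479, adjusted 0.926 and 0.718). Without the 2 libraries farthest from the median of Kdr, r was 0.47 for day 1 surgery and 0.72 for day 14 surgery. Within the 4 UNX and the 4 sham libraries it was 0.82 and 0.34 for day 14 surgery. For day 1 surgery it was 0.44 and −0.71 in the same order, given as a description. The difference between these r and that of Vegfa with Kdr was not tested.

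The genes with the most similar or most opposite pattern are given by identifier, since the files do not pair them with names. With Kdr, ENSRNOG00000008271 had the highest r over the 16 libraries, ages included, 0.94, and still 0.84 after each library's group mean was taken away. With Hif1a, ENSRNOG00000013669 had the highest r by both measures, 0.92 and 0.86. With Flt1, ENSRNOG00000045820 had the lowest r over the levels, −0.97, and its mean level was 10.24 in sham day 1 and 8.99 in sham day 14 kidneys. With Hif1a, ENSRNOG00000016561 had the lowest, −0.92, at 7.97 and 7.26 in the same groups. These were picked as extremes among all tested genes and are a description, with no test.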

How the data were processed

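Total kidney RNA was sequenced in 16 libraries, 4 in each of 4 groups named by the sample titles. The headers mark controls CO, read here as sham. Per the labels' protocols, genomic DNA was digested, unwanted rat sequences were depleted and the Ovation Universal kit was used. The submitters' processing notes name, without roles, STAR 2.4.0, BWA 0.7.14, DESeq2, featureCounts and Subread 1.5.1. Build, annotation and strand setting: not given in the sources used here. Whether reads of overlapping or antisense genes were told apart is therefore unknown. The deposited values are rlog expression on a log2 scale, scaled for depth and shrunken by the authors' transform, as the table's name and values show.

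The 14845 genes with a mean of at least 3 were tested with limma 3.58.1 in R 4.3.3, with 1 mean per group over all 16 libraries, a mean-variance trend, two-sided tests and p-values adjusted by Benjamini-Hochberg across all of them, called at adjusted p under 0.05, and the test was tried on simulated data. Exact permutation tests ran in Python 3.11.15 with numpy 2.4.6 and scipy 1.17.1. The members, lists and tests were chosen with earlier results of these data known. The text names the 4 genes, and identifiers with the highest or lowest r. Those printed were picked among these after their values were seen. The reference table paired 0 of 26689 identifiers with a symbol, so the 13 fixed gene lists were not analysed here, and the pairing of the 4 identifiers with their symbols was not checked against it. The motifs were chosen after the data were seen. Alternatives changed the filter, scaling, variance model, libraries fitted and a block for the library number.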

Additional observations from a re-analysis of the deposited data

Results flagged for a closer look

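Each gene, and each of the 3 within-library differences, was screened in each group for a library far from the other 3, in 28 groups of 4, of which 2 held one. About 1 in 20 groups does so by chance. Hif1a was 10.66 in library 2 of the UNX day 1 group and from 10.78 to 10.80 in its other 3. Without this library the UNX difference of Hif1a on day 1 was 0.026 in place of −0.0064, and it did not pass the test either way. Vegfa was 12.64 in library 1 of the same group and from 12.69 to 12.70 in its other 3, a narrow span on the log2 scale.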

How the results depend on the processing

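Fits without 2 libraries, and all alternatives for correlations, were chosen after the data were seen. Of 544 refits of the 24 differences, 518 kept direction and call. Many left out only a library not compared, which cannot move a difference. Of the 4 genes, 3 were called for age in sham kidneys, or 1 to 4 without 1 library (1 without sham day 1 library 1). Each fit called 2 for age in UNX kidneys and 0 for every UNX comparison. Some UNX differences changed sign without 1 library, none being called, over ranges of −0.017 to 0.070 (Vegfa), −0.052 to 0.0045 (Flt1) and −0.044 to 0.044 (Hif1a) on day 1, −0.019 to 0.040 (Kdr) on day 14, −0.020 to 0.024 (Vegfa) and −0.027 to 0.0021 (Kdr) averaged over ages, and −0.085 to 0.016 (Flt1) for the difference between ages. Without the 2 sham libraries that stood apart, the day 1 UNX differences were 0.0045 for Flt1 and 0.044 for Hif1a. Without UNX day 14 libraries 1 and 3, the averaged Kdr difference was 0.0023 and that on day 14 was 0.041. The day 14 Vegfa difference was −0.0034 in that fit and −0.0080 without the 2 sham libraries. The latter fit gave 0.028 for Kdr on day 14, 0.020 for Vegfa averaged over ages, and −0.10 for Hif1a, 0.075 for Kdr and −0.017 for Flt1 as differences of UNX effects between ages. Without the 2 UNX libraries those differences were 0.077 for Kdr, −0.026 for Flt1 and −0.036 for Vegfa, and the averaged Vegfa value was 0.015. Without 1 library, the difference of UNX effects between ages ran from −0.094 to −0.0065 for Vegfa, 0.017 to 0.076 for Kdr and −0.11 to −0.024 for Hif1a, and the day 1 Kdr difference from −0.060 to −0.018. The range without 1 library was −0.051 to 0.030 on day 1 and 0.040 to 0.13 on day 14 for Kdr minus Flt1 (UNX against sham), 0.0049 to 0.10 and −0.042 to −0.020 for Vegfa minus Kdr and 0.0012 to 0.074 and 0.014 to 0.093 for Vegfa minus Hif1a in the same order, and −0.10 to 0.00074 for Vegfa minus Kdr (age, sham). It was 0.89 to 0.96 for the day 14 r of Vegfa and Kdr. For uncalled r values it was −0.56 to 0.37 (Vegfa and Kdr), −0.52 to 0.24 (Kdr and Flt1), −0.18 to 0.10 (Kdr and Hif1a) and −0.17 to 0.71 (Flt1 and Hif1a) on day 1, and −0.51 to 0.083 (Vegfa and Hif1a), −0.10 to 0.59 (Vegfa and Flt1) and −0.20 to 0.48 (Flt1 and Hif1a) on day 14. Centring each library on its median turned the day 1 r of Kdr and Hif1a to 0.033. The causes were not tested.

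Library numbers are shared between groups, but the deviations of same-numbered libraries correlated at only −0.23 to 0.12, and 3 of 8 matched their own number best. A replicate block left the number of the 4 genes called at 3 and 2 for age and 0 for UNX. Over all genes it moved the calls for UNX from 1 to 0 on day 1 and from 8 to 2 on day 14. For age, the block ran across all groups. Other settings moved the UNX counts over all genes to 0 to 9 on day 1, 0 to 7 on day 14 and 0 to 1 averaged over ages, and the count for the difference between ages to 0 to 4. Fits without 1 library gave 0 to 2, 0 to 90, 0 to 10 and 0 to 5 in the same order. Intervals for age, and for UNX at each age, reached 0.09 to 0.11 either side of the estimate. Read depth is unknown.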
